A study of Mus musculus with 2 samples.

Results

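The nuclear genes of respiratory complexes II, III, IV and V were described in RNA of sorted CD69+ double-positive (DP) thymocytes. These are thymic T cell precursors that hold both CD4 and CD8 and carry CD69, a marker of a received T cell receptor signal. Members were the gene IDs whose mouse symbol is Sdha to Sdhd or Cyc1, or starts with Uqcr, Atp5, or Cox followed by a digit of 4 to 8 and further text, with pseudogenes left out. This gave 48 of the 24532 gene IDs in the deposited tables. Of these, 45 reached 1 TPM in at least 1 library, 42 reached 10 TPM, and 3 were listed at 0 in both. TPM is a transcript level per length that sums to a fixed total in each library.

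There were 2 libraries, 1 from NSRP1f/fCD4Cre mice (labelled KO, a conditional knockout of NSrp70) and 1 from NSRP1f/f mice (labelled WT). Both groups were C57BL/6, aged 6 weeks, and both carried the floxed Nsrp1 alleles, so the groups differed in the Cre, whose CD4 promoter works from the DP stage onward. NSrp70, the product of Nsrp1, is a splicing factor of nuclear speckles, and the study compared gene expression with and without it. The labels do not say how many animals gave each library or whether animals were pooled. With 1 library per group no test was made, and every interval below covers counting error only.

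Complexes II, III and IV pass electrons from succinate and ubiquinol to oxygen, and complexes III and IV pump protons out of the mitochondrial matrix. Complex V, ATP synthase, lets protons back through a ring of c subunits and uses the rotation to make ATP. All subunits of complex II are nuclear-encoded, whereas complexes III, IV and V are built from nuclear and mitochondrial subunits together. Most DP thymocytes are small resting cells, whereas the precursors just before them proliferate.

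The 3 genes of the c ring of ATP synthase, Atp5g1 on chromosome 11, Atp5g2 on chromosome 15 and Atp5g3 on chromosome 2, encode proteins of 136, 146 and 141 residues whose last 78 residues are identical. Their coding sequences for that shared end, from GENCODE M21 and with the stop codon, are shown because the 3 genes differ in the libraries although the mature protein is the same. Capitals mark the 64 of 237 positions at which the 3 genes are not all alike.
Atp5g1: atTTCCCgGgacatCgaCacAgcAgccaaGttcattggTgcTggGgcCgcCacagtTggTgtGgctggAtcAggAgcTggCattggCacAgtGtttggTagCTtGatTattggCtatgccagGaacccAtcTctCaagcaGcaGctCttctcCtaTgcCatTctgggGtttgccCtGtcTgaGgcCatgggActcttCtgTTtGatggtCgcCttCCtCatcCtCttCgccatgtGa
Atp5g2: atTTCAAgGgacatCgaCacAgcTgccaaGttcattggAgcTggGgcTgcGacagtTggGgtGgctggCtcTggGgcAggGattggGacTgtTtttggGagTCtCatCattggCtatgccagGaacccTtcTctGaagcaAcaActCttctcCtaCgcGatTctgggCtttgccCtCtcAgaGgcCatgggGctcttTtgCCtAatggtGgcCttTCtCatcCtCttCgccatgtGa
Atp5g3: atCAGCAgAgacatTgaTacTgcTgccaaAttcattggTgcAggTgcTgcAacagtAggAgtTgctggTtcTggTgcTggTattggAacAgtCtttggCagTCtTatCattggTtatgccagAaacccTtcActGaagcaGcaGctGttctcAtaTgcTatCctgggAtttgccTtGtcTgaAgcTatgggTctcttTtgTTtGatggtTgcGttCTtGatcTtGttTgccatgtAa
Between genes, 84.8% of these bases were identical for Atp5g1 and Atp5g2, 78.5% for Atp5g1 and Atp5g3, and 77.2% for Atp5g2 and Atp5g3. The longest identical run was 21 bases for Atp5g1 and Atp5g2, so a full-length mate that lies inside this stretch spans positions at which the genes differ. In Atp5g1, the last exon holds the final 112 of the 408 coding bases, besides the stop codon.

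Atp5pb encodes the b subunit of the peripheral stalk of ATP synthase, and RefSeq lists a longer transcript with an additional exon of 167 bases. The length of that exon is not a multiple of 3. The GENCODE M21 transcript that contains it is annotated as a target of nonsense-mediated decay. The 30 bases that end its reading frame, chr3:105957934-105957963 on the minus strand of mm10 (GRCm38), are 9 codons and a stop codon, which is in capitals.
Atp5pb additional exon: aaccaaatctggtcctgtgaagagcagTAA

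Promoters were searched on both strands for 3 short words of factors known to act on respiratory genes. These were TGCGCA, the half-site of nuclear respiratory factor 1, CCGGAAG, a word of ETS factors such as GABPA, and AAGATGG, a word of YY1. None of the 3 words contains another. The windows below run from 120 bases before to 30 bases after the annotated start, from the RefSeq table of GRCm38.p6, with words on either strand in capitals. They are shown because Sdhd, Cox6a1 and Cox8a had higher levels in the KO-labelled library, whereas the levels of Sdha, with 2 copies of TGCGCA, differed by less than counting error. Sdhd also has 2 copies of TGCGCA in the full 300 bases of the table, with 1 inside the window. The 4 were picked with their values known, and words did not go with fold change throughout. Cox5a and Atp5g3, with higher folds than Sdhd and Cox6a1, hold none of the 3 words in this table, and Uqcrh, with a small one, holds CCGGAAG.
Sdha (chr13:74350211-74350360, minus strand): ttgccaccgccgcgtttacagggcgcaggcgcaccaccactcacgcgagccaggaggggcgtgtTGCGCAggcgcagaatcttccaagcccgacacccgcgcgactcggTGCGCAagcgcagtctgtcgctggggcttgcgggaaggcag
Sdhd (chr9:50603820-50603969, minus strand): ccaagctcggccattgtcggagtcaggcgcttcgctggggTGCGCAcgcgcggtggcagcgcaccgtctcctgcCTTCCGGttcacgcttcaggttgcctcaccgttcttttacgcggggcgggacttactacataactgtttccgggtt
Cox6a1 (chr5:115348929-115349078, minus strand): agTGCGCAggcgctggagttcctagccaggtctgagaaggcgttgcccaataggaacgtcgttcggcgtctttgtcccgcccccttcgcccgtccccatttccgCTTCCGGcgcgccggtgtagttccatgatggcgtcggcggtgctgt
Cox8a (chr19:7217587-7217736, minus strand): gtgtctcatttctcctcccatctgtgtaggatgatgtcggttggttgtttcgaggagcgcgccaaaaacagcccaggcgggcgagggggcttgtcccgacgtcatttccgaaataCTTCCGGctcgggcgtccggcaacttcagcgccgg
In the full 300 bases of the table, TGCGCA was in 8 of the 34 measured members with an entry (23.5%), against 16.5% of 9381 measured genes and 8.79% of all 27025 promoters. CCGGAAG was in 13 (38.2%), against 21.6% of measured genes and 9.93% of all promoters. AAGATGG was in 4 (11.8%), against 8.61% and 7.28% in the same background sets. At least 1 of the 3 words was in 20 members (58.8%) and in 39.4% of measured genes. A match is a description of the letters in the window.

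Covered bases, summed as depth over annotated exons, came to 5076 megabases in the KO-labelled library and 4199 megabases in the WT-labelled one. Nsrp1 itself had 29.6 TPM in the KO-labelled library and 29.7 TPM in the WT-labelled library, so its whole-gene level did not differ. Which exons are floxed is not given and its single exons were not compared, so this level cannot check the label. Each direction below is between libraries as labelled. The sorted cells carried their markers, with Cd4, Cd8a and Cd69 at 663, 1151 and 522 TPM in the KO-labelled library and at 725, 1138 and 430 TPM in the WT-labelled one. The 6 markers of the sorted cells had a median log2 fold change of -0.02 but were spread. Cd8b1 and Cd69 were at 0.29 and 0.28, Cd8a at 0.02, Rag1 at -0.05, and Cd4 and Cd3e at -0.13 each. Summed B cell markers were at 61.0 and 53.0 TPM, myeloid markers at 66.7 and 83.1 TPM, thymic epithelial markers at 8.54 and 7.08 TPM and erythroid markers at 3.08 and 1.36 TPM in the KO-labelled and WT-labelled libraries. Krt5, Krt8 and Foxn1 of the epithelium and Hba-a1 and Hbb-bt of red cells were listed at 0 in both. All 8 markers of cycling cells were higher in the KO-labelled library by at least 0.52 on the log2 scale, with a median of 0.95 and sums of 589 TPM in the KO-labelled library and 302 TPM in the WT-labelled one. The part that cycling cells or depth have in the results below was not tested. In bulk RNA, fewer cells of a type and less RNA per cell cannot be told apart.

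As a group, the respiratory subunits were slightly and broadly higher in the KO-labelled library. Together the members held 1.72% of all TPM in the KO-labelled library and 1.52% in the WT-labelled library, a sum 12.9% higher. The median log2 fold change, KO over WT on the TPM + 1 scale, was 0.16 over the 45 measured members, against -0.07 over the 12029 genes of either library that reached 1 TPM. The scale adds 1 TPM to each value and so understates the change of genes near that level. Of the 45 members, 42 lay above zero, while 38.5% of all genes did. The contrast was smaller at like transcript length. Among genes at 10 TPM or more under 750 bases, 21 of 22 members and 325 of all 481 genes lay above zero. For 750 to 1500 bases it was 12 of 13 and 982 of 1328, and for 1500 to 3000 bases 7 of 7 and 1512 of 3161. The size of the difference was small. By a rule of size of 0.25 on the log2 scale, 11 members were higher, against 9.85% of all genes, and 1 was lower, against 23.7% of all genes. The lower one was Cox4i2, at about 1 TPM. Among the 42 members at 10 TPM or more, 9 were higher by that size and none was lower, against 8.16% and 20.4% of all genes at that level. No member was past a log2 fold change of 1, which 0.657% of all genes passed upward and 1.37% downward.

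The ratio of the KO-labelled library to the WT-labelled library had an exact binomial interval of 95% above 1 for 35 members and including 1 for 10. No member had an interval below 1. Over all genes, 16.3% had an interval above 1 and 35% below 1. These shares are not at like levels or lengths, since counting intervals narrow with depth. The members' median level was 317 TPM in the KO-labelled library, against 28.2 TPM for all genes, and a share at like level was not computed. The 10 members whose interval included 1 were Sdha, Cyc1, Cox4i2, Cox6a2, Cox6b2, Cox7a1, Cox7a2l, Cox7c, Atp5j2 and Atp5md. The members just past the size of 0.25 were Atp5o at 0.2523, with 510 TPM in the KO-labelled library and 428 TPM in the WT-labelled one, and Cox6a1 at 0.27. Of the 50-base words of their transcripts, 50.3% for Atp5o and 12.3% for Cox6a1 also occur in other genes, so these levels are uncertain. Uqcr11 at 0.2499 and Sdhb at 0.2437 were just under it.

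**Figure D1:**
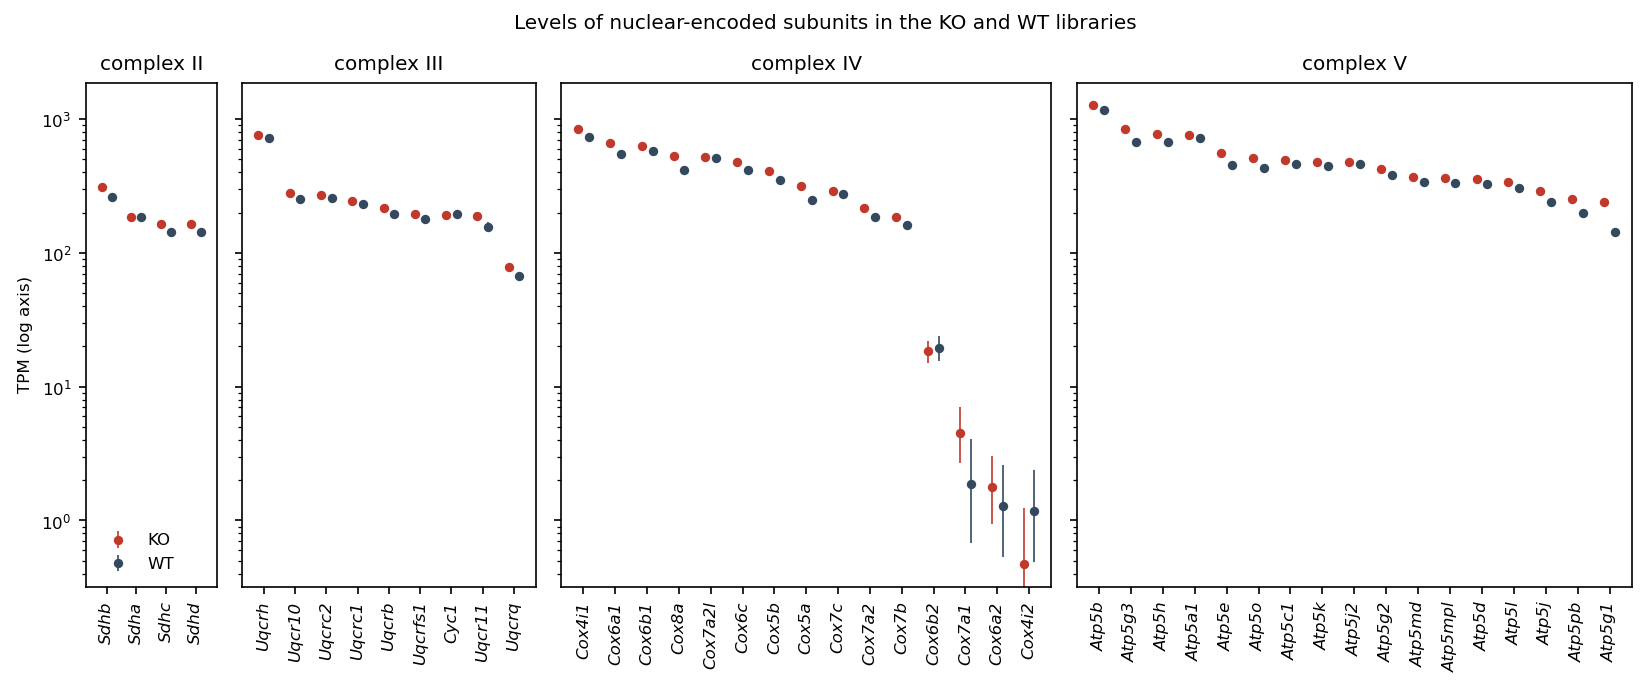
Levels of the 45 measured members in TPM (log axis) by complex, with the KO-labelled library left of the WT-labelled library for each gene. Bars are 95% exact Poisson counting intervals, and within each complex genes are ordered by the level in the KO-labelled library. Most points are above 100 TPM with KO slightly above WT, and the tissue-restricted isoforms of complex IV lie far below.

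Complex II, succinate dehydrogenase, links the tricarboxylic acid cycle to the respiratory chain. Its 4 genes summed to 823 TPM in the KO-labelled library and 734 TPM in the WT-labelled one, 12.1% higher, and the median log2 fold change was 0.19. Sdha, the flavoprotein that oxidises succinate, had 185 TPM (180 to 190) in the KO-labelled library and 185 TPM (179 to 190) in the WT-labelled one. It was the only subunit of the complex whose ratio interval, 0.964 to 1.04, held 1. Sdhb, the iron-sulfur subunit and the most abundant of the 4, had 309 TPM (299 to 319) in the KO-labelled library and 261 TPM (250 to 271) in the WT-labelled one, a log2 fold change of 0.24. The membrane anchors differed by about the same amount. Sdhc had 165 TPM in the KO-labelled library and 145 TPM in the WT-labelled one, and Sdhd had 164 TPM in the KO-labelled library and 144 TPM in the WT-labelled one, each with a log2 fold change of 0.19. The Sdhd promoter shown above holds TGCGCA and CCGGAAG, and the Sdha promoter holds TGCGCA at 2 places.

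Complex III, the cytochrome bc1 complex, takes electrons from ubiquinol and hands them to cytochrome c. It had the smallest difference of the 4 complexes, with a median of 0.12 over 9 genes and a sum 7.34% higher, and no gene past the size of 0.25. The nuclear-encoded subunits that carry electrons are Cyc1 and Uqcrfs1. Cyc1, cytochrome c1, had 192 TPM in the KO-labelled library and 196 TPM in the WT-labelled one, with a ratio interval of 0.924 to 1.04. Uqcrfs1, the Rieske iron-sulfur protein, had 195 TPM in the KO-labelled library and 179 TPM in the WT-labelled one, a log2 fold change of 0.12. Without its terminal exon, which is 1030 of its 1313 bases, that value was -0.03. The core proteins Uqcrc1 and Uqcrc2 were at 246 and 273 TPM in the KO-labelled library, against 231 and 258 TPM in the WT-labelled one, with log2 fold changes of 0.09 and 0.08. Of the bases of Uqcrc2, 12.1% overlap exons of Pdzd9 on the opposite strand, and without strand in the counts their reads cannot be told apart.

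The small subunits of complex III, which surround the catalytic core, were spread more widely. Uqcrh, the hinge protein and the most abundant of the complex, had 765 TPM (743 to 787) in the KO-labelled library and 726 TPM (702 to 751) in the WT-labelled one, a log2 fold change of 0.07. Uqcr11 had 188 TPM (176 to 200) in the KO-labelled library and 158 TPM (145 to 171) in the WT-labelled one, 0.25 on the log2 scale. Uqcrq had the next difference in size, 0.21, at 78.3 TPM in the KO-labelled library and 67.6 TPM in the WT-labelled library. Its annotated second exon, 1229 of its 1525 bases, was hardly covered, at 10.5 and 10.3 TPM-equivalents in the KO-labelled and WT-labelled libraries. The bases before that exon were at 358 TPM-equivalents in the KO-labelled library and 304 in the WT-labelled one. A TPM-equivalent is exon depth divided by the same library-wide sum of transcript depth that turns coverage into TPM. Uqcr10 was at 279 TPM in the KO-labelled library and 253 TPM in the WT-labelled one, and Uqcrb at 215 TPM in the KO-labelled library and 195 TPM in the WT-labelled one, both 0.14 on the log2 scale. Uqcrb shares 43.4% of its 50-base words with transcripts of other genes, mostly predicted genes, so its level is uncertain.

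Complex IV, cytochrome c oxidase, passes electrons to oxygen, and several of its nuclear subunits have a widely used isoform and a tissue-restricted one. It had the highest median of the 4 complexes, 0.20 over 15 measured genes, with a sum 14.8% higher. Without terminal exons its median was 0.20 and that of complex II, 0.22, was the highest. Cox5a and Cox8a had the highest fold changes among those at 10 TPM or more. Cox5a, a subunit on the matrix side, had 317 TPM (304 to 329) in the KO-labelled library and 250 TPM (238 to 263) in the WT-labelled one, a log2 fold change of 0.34 and a ratio interval of 1.19 to 1.35. Cox8a, a membrane subunit, had 526 TPM (508 to 545) in the KO-labelled library and 416 TPM (398 to 435) in the WT-labelled one, also 0.34. Cox5a shares 32.0% of its 50-base words with other genes and Cox8a shares none. Cox5b, another matrix-side subunit, was at 409 TPM in the KO-labelled library and 350 TPM in the WT-labelled one. Of its 50-base words, 25.9% occur in other genes.

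The isoform pairs of complex IV showed which form each subunit took in these thymocytes. Cox4i1, the widely used isoform of subunit 4 and the most abundant gene of the complex, had 841 TPM (822 to 861) in the KO-labelled library and 732 TPM (712 to 754) in the WT-labelled one, a log2 fold change of 0.20. Its partner Cox4i2, known from lung and from low oxygen, had 0.474 TPM (0.125 to 1.24) in the KO-labelled library and 1.17 TPM (0.486 to 2.38) in the WT-labelled library, intervals that overlap. Cox6a1 had 663 TPM in the KO-labelled library and 552 TPM in the WT-labelled one, 0.27 on the log2 scale, while the muscle isoform Cox6a2 had 1.77 TPM in the KO-labelled library and 1.29 TPM in the WT-labelled library. Here too the muscle form was at trace level. Cox6b1 had 635 TPM in the KO-labelled library and 581 TPM in the WT-labelled one. Cox6b2, known from testis, had 18.4 TPM (15.1 to 22.1) in the KO-labelled library and 19.4 TPM (15.6 to 23.8) in the WT-labelled library and was the only restricted isoform above 10 TPM. Subunit 7a had the same order, with the widely used form on top. The muscle isoform Cox7a1 had the highest fold change of all members, 0.94, but rested on levels of 4.52 TPM (2.70 to 7.11) in the KO-labelled library and 1.87 TPM (0.682 to 4.10) in the WT-labelled library. The interval of its ratio, 0.918 to 7.46, included 1. Cox7a2, its widely used partner, had 217 TPM in the KO-labelled library and 186 TPM in the WT-labelled one, 0.22 on the log2 scale. Cox7a2l, a related protein known from supercomplexes of III and IV, had 522 TPM in the KO-labelled library and 510 TPM in the WT-labelled one, with a ratio interval of 0.986 to 1.06. This was the smallest difference of the abundant genes of the complex. Cox7b had 187 TPM in the KO-labelled library and 162 TPM in the WT-labelled one, whereas Cox7b2, Cox8b and Cox8c, known from testis or muscle, were listed at 0 in both libraries. The remaining small subunits Cox6c and Cox7c were at 475 and 293 TPM in the KO-labelled library and at 414 and 276 TPM in the WT-labelled one, with log2 fold changes of 0.20 and 0.08.

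Complex V, ATP synthase, had 17 genes, and each lay above zero, with a median of 0.14 and a sum of 8806 TPM in the KO-labelled library and 7758 TPM in the WT-labelled one, 13.5% higher. The difference was uneven across the parts of the enzyme. By median log2 fold change, the c ring was at 0.32 and the peripheral stalk at 0.27, above the membrane part at 0.12, the central stalk at 0.11 and the F1 head at 0.09. These groups hold 2 to 5 genes each, and the differences between them were not tested.

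The F1 head, where ATP is made, had the most abundant gene of all members. This was Atp5b, the catalytic beta subunit, with 1267 TPM (1252 to 1282) in the KO-labelled library and 1168 TPM (1152 to 1185) in the WT-labelled one, a log2 fold change of 0.12. Atp5a1, the alpha subunit, had 764 TPM in the KO-labelled library and 728 TPM in the WT-labelled one, 0.07 on the log2 scale. In the central stalk, which turns with the ring, Atp5c1 and Atp5d differed little and Atp5e differed more. Atp5c1, the gamma subunit, had 495 TPM in the KO-labelled library and 461 TPM in the WT-labelled one, and Atp5d, the delta subunit, had 355 TPM in the KO-labelled library and 330 TPM in the WT-labelled one. Atp5e, the epsilon subunit, had 558 TPM (536 to 580) in the KO-labelled library and 452 TPM (430 to 474) in the WT-labelled one, 0.30 on the log2 scale. The gamma gene has a short exon of 37 bases that is known to be left out in heart and skeletal muscle. Its depth was 1125 reads per base in the KO-labelled library and 821 in the WT-labelled one, beside 1118 and 778 over the exon before it, so it was kept in both.

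By whole-gene values, the c ring carried the widest spread of the parts of ATP synthase. That order did not hold without terminal exons, where the c ring ran from 0.13 to 0.30 and the central stalk from 0.09 to 0.28. Atp5g3, the most abundant of the 3 c ring genes, had 844 TPM (824 to 864) in the KO-labelled library and 675 TPM (654 to 695) in the WT-labelled one, a log2 fold change of 0.32. Atp5g2 had 426 TPM (411 to 441) in the KO-labelled library and 381 TPM (365 to 397) in the WT-labelled one, 0.16 on the log2 scale, but shares 87.4% of its 50-base words with other genes. Atp5g1 had 240 TPM (230 to 251) in the KO-labelled library and 143 TPM (134 to 152) in the WT-labelled one. Its log2 fold change of 0.74 was the highest among members at 10 TPM or more, with a ratio interval of 1.55 to 1.81. The last of its 5 exons differed far more than the others.

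That exon, chr11:96072793-96073218, is 426 of the 798 bases of the transcript. It was at 136 TPM-equivalents in the KO-labelled library and 4.91 in the WT-labelled library, from about 645 and 18.1 read pairs. The third exon was at 500 TPM-equivalents in the KO-labelled library and 419 in the WT-labelled one, and the fourth at 433 in the KO-labelled library and 366 in the WT-labelled one. Without the last exon, Atp5g1 was at 360 TPM-equivalents in the KO-labelled library and 302 in the WT-labelled one, a log2 fold change of 0.25. The last exon was thus below the internal exons in both libraries and close to uncovered in the WT-labelled one, although it carries part of the coding sequence shown above. A GENCODE M21 transcript of Atp5g1 is 4715 bases long, far more than the RefSeq transcript. Of its 4666 words of 50 bases, 542 (11.6%) occur in other genes, 366 genes in all. That share is over the 4715 bases, so the share within the 798 bases that were measured is not known and could be higher. Whether reads of this exon were assigned elsewhere in the WT-labelled library was not tested. In Atp5g3 the last exon was at 773 TPM-equivalents in the KO-labelled library and 598 in the WT-labelled one, in step with its other exons.

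The peripheral stalk holds the head still while the ring turns, and its 4 genes had log2 fold changes of 0.22 to 0.35. Atp5pb, subunit b, had 252 TPM (245 to 260) in the KO-labelled library and 198 TPM (191 to 205) in the WT-labelled one, a log2 fold change of 0.35. By exon depth over 1 fixed length it was 0.21, under the size of 0.25, because the deposited levels rest on transcripts of different length in the 2 libraries, as described below. Atp5j, coupling factor 6, had 292 TPM in the KO-labelled library and 240 TPM in the WT-labelled one, 0.28 on the log2 scale, with 15.2% of its bases overlapping Gabpa on the opposite strand. Atp5h, subunit d, had 779 TPM in the KO-labelled library and 671 TPM in the WT-labelled one, and shares 50.5% of its 50-base words with other genes. Atp5o, the subunit that confers oligomycin sensitivity, was described above with the size of 0.25. In the membrane part next to the ring, no gene was past 0.25. The highest there was Atp5l, subunit g, with 338 TPM in the KO-labelled library and 306 TPM in the WT-labelled one, 0.14 on the log2 scale. Atp5mpl had 363 TPM in the KO-labelled library and 333 TPM in the WT-labelled one, and Atp5md had 367 TPM in the KO-labelled library and 341 TPM in the WT-labelled one. These 3 small subunits differed by nearly the same amount, though Atp5l shares 84.8% and Atp5md 40.6% of their 50-base words with other genes. Atp5k, subunit e, had 481 TPM in the KO-labelled library and 443 TPM in the WT-labelled one, 0.12 on the log2 scale. Atp5j2, subunit f, had 475 TPM in the KO-labelled library and 460 TPM in the WT-labelled one, with a ratio interval of 0.972 to 1.10. Atpif1, the inhibitor that stops the enzyme from running backward and that the symbols above do not include, had 73.0 TPM in the KO-labelled library and 63.5 TPM in the WT-labelled library.

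**Figure D2:**
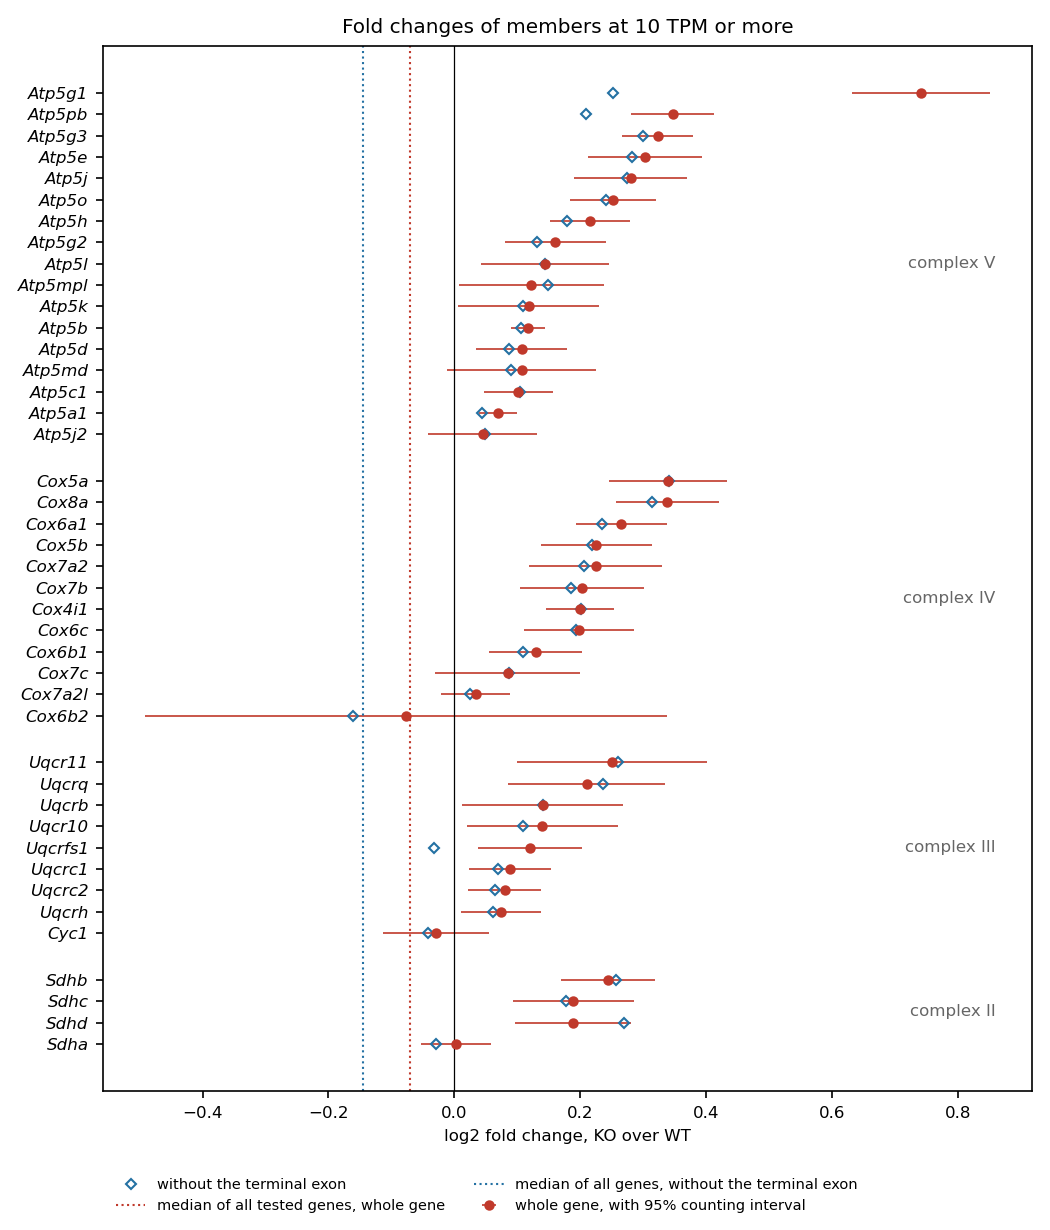
Log2 fold change, KO over WT, of the 42 members at 10 TPM or more, for the whole gene (red, with 95% counting interval) and without the terminal exon (blue diamonds). Dotted lines are the medians of all genes, -0.07 over 12029 whole genes and -0.14 over the 8954 genes with enough depth without terminal exons. Atp5g1 is the gene where the blue value, 0.25, is farthest from the red one, 0.74.

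Few members can differ in transcript use, since 38 of the 48 genes have 1 transcript in the tables and 10 have more. Among these 10, Cox6b2 and Atp5pb had a share of the gene's TPM that differed by 10 percentage points or more between the libraries, against 27.7% of the 3032 genes with more than 1 transcript and at least 10 TPM in both. In Cox6b2 a form of 553 bases had 38.6% of the gene's TPM in the KO-labelled library and 23.0% in the WT-labelled library, at levels of only 7.10 and 4.46 TPM. A form of 564 bases differed the opposite way, with 19.6% in the KO-labelled library and 32.7% in the WT-labelled library, where it was the most abundant. In Atp5pb the longer transcript had 0.890% of the gene's TPM in the KO-labelled library and all of it in the WT-labelled one, a difference of -99.1 points.

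The exons of Atp5pb did not show that switch. The additional exon of 167 bases, shown above, had a depth of 10.1 reads per base in the KO-labelled library and 9.0 in the WT-labelled library. This was 0.940% of the mean depth of the 2 exons beside it in the KO-labelled library and 1.14% in the WT-labelled library. By depth, the exon was thus nearly absent from both libraries, and the switch of the deposited shares has no counterpart there. The annotated last exon of Atp5pb, which holds 75 of its 768 coding bases, was at 0.228 TPM-equivalents in the KO-labelled library and 0.127 in the WT-labelled library, beside 784 and 659 in the exon before it. It held under 1 read pair in either library. So did exon 1, at 0.952 and 0, and exon 2, at 0.221 and 0.181 TPM-equivalents in the KO-labelled and WT-labelled libraries. The fold change of 0.35 in TPM divides the reads by 1641 bases in the KO-labelled library and by 1808 bases in the WT-labelled one, and with 1 length for both it was 0.21. Of its 50-base words, 38.7% occur in other genes and 12.5% of its bases overlap Wdr77 on the opposite strand.

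**Figure D3:**
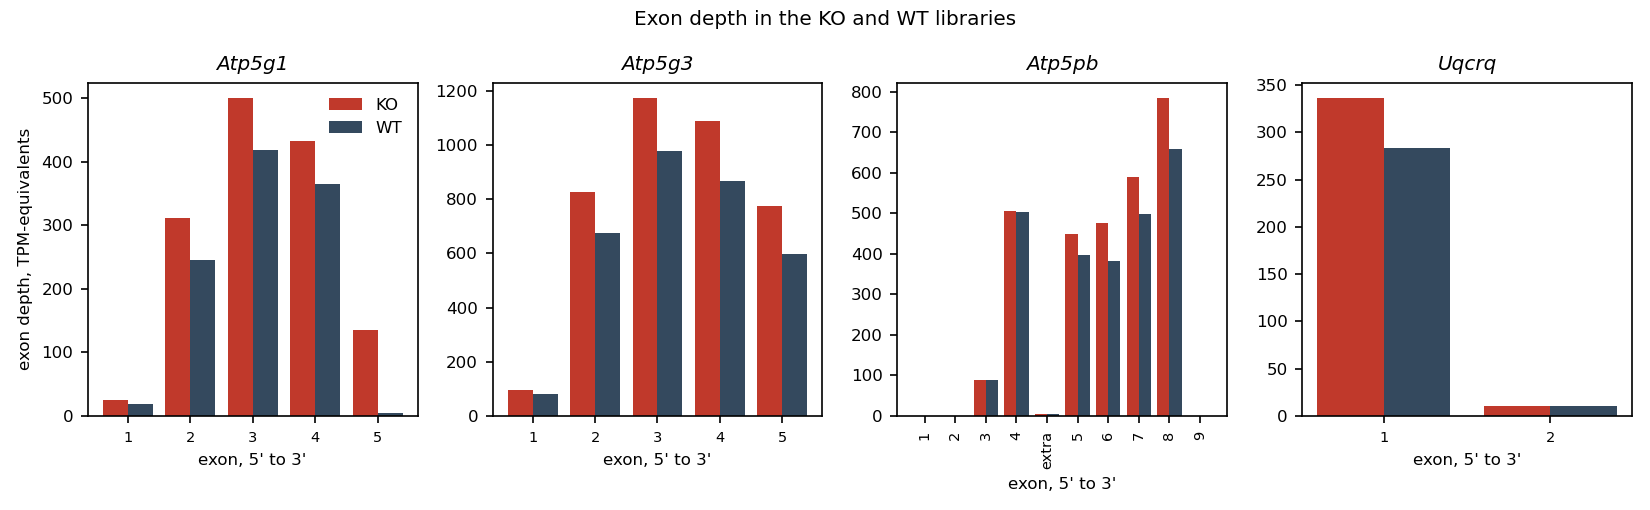
Depth of each exon in TPM-equivalents for 4 genes, with the KO-labelled library left of the WT-labelled library, exons numbered along the most abundant transcript in the KO-labelled library. The fifth exon of Atp5g1 is at 136 in KO and 4.91 in WT. In Atp5pb the exon marked extra is at 4.48 in KO and 5.15 in WT, and exons 1 and 2 and the last exon are near zero. In Uqcrq the second exon is at 10.5 in KO and 10.3 in WT.

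Without terminal exons the median differed little for the members and more for all genes, where the difference was largest in long transcripts. At 10 TPM or more, the median of all genes under 750 bases was 0.11 with terminal exons and 0.13 without. For 750 to 1500 bases it was 0.11 and 0.08, and for 1500 to 3000 bases -0.01 and -0.07. For 3000 bases or more it was -0.18 and -0.30. In order of length, the medians without terminal exons are over 295, 1203, 2946 and 3634 genes, against 481, 1328, 3161 and 3804 with them. The rest had a single exon or too little depth outside the last exon, so the medians are not over the same genes. Over the 42 members with enough depth in the other exons, the median log2 fold change was 0.15 and 38 lay above zero. Over 8954 genes it was -0.14, with 29.9% above zero. Sdha turned from 0.00 to -0.03 and Uqcrfs1 from 0.12 to -0.03 in that calculation, while Sdhd moved from 0.19 to 0.27. The 9 members past 0.25 without terminal exons were Cox5a, Cox8a, Atp5g3, Atp5e, Atp5j, Sdhd, Uqcr11, Sdhb and Atp5g1, against 6.38% of all genes in that calculation. At 10 TPM or more and under 750 bases, 5 of 22 members and 67 of all 295 genes were past it, with medians of 0.15 and 0.13. For 750 to 1500 bases, 4 of 13 members and 199 of 1203 genes were, with medians of 0.19 and 0.08. For 1500 to 3000 bases, none of 7 members and 177 of 2946 genes were, with medians of 0.07 and -0.07. Above zero in these classes, in order, lay 21, 11 and 6 of the members and 246, 823 and 1059 of the genes.

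Most members are short genes, and fold change went with transcript length across all genes. The members' most abundant transcripts had a median length of 714 bases, against 2638 bases for all measured genes, and none reached 3000 bases. Among genes at 10 TPM or more, the 22 members under 750 bases had a median of 0.15, against 0.11 for all 481 genes of that length. For 750 to 1500 bases the 13 members were at 0.19 and all 1328 genes at 0.11. For 1500 to 3000 bases the 7 members were at 0.09 and all 3161 genes at -0.01. The 3804 genes of 3000 bases or more, with no member among them, had a median of -0.18. Within a length class the members' median thus lay 0.04 to 0.10 above that of all genes of like length, a much smaller gap than the 0.23 from all genes. By the size of 0.25, 5 of the 22, 3 of the 13 and 1 of the 7 members were higher, against 23.5%, 19.4% and 7.69% of all genes in those 3 classes, so the members' counts are near the share of genes of like length. The part that transcript length has in the members' difference was not tested.

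**Figure D4:**
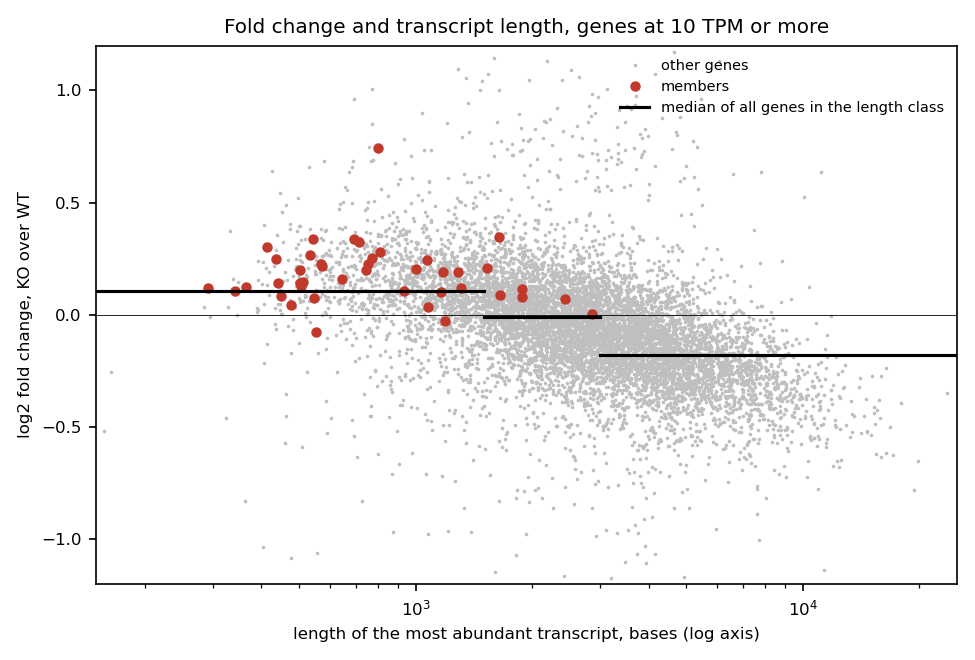
Log2 fold change, KO over WT, against the length of the most abundant transcript (log axis) for genes at 10 TPM or more, with members in red and other genes in grey. Black lines are medians of all genes in each length class, 0.11 for both classes under 1500 bases, -0.01 up to 3000 bases and -0.18 beyond. Another 177 genes, none of them members, lie outside the plotted range.

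Genes around the 4 complexes were read beside the members. For complex I, NADH dehydrogenase, genes were taken by symbol alone, as Nduf followed by a, b, c, s or v and a digit. The 37 measured ones had a median of 0.17, with 35 above zero and 10 higher by 0.25 or more, close to complexes II to V. Their median transcript length was 651 bases. Of all genes 9.85% were higher by that size, but 23.5% of those under 750 bases at 10 TPM or more. Of 39 assembly factors, which build and insert cofactors into these complexes, 38 were measured, with a median of 0.10, 29 above zero, 8 higher and 1 lower by 0.25 or more. Their median transcript length was 1334 bases. At 10 TPM or more, 19.4% of genes of 750 to 1500 bases were higher by that size, and 23.7% of all genes were lower. The highest of these factors was Sdhaf4, an assembly factor of complex II, with 20.4 TPM in the KO-labelled library and 13.5 TPM in the WT-labelled library, 0.55 on the log2 scale. The lowest was Sdhaf1, which helps insert iron-sulfur clusters into complex II, with 42.4 TPM in the KO-labelled library and 52.1 TPM in the WT-labelled library, -0.29. Cycs, the electron carrier between complexes III and IV, had 67.7 TPM in the KO-labelled library and 57.7 TPM in the WT-labelled library.

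The 14 enzymes of the tricarboxylic acid cycle had a median of 0.13, with 3 higher and 1 lower by 0.25 or more. Of all genes, 9.85% were higher and 23.7% lower by that size. The enzymes' median transcript length was 2192.5 bases, and 7.69% of genes of 1500 to 3000 bases at 10 TPM or more were higher. Fh1, fumarase, which takes up the product of complex II, had 72.5 TPM in the KO-labelled library and 57.0 TPM in the WT-labelled library, 0.34 on the log2 scale. Ogdh, of the oxoglutarate dehydrogenase complex, had 77.6 TPM in the KO-labelled library and 93.4 TPM in the WT-labelled library, -0.26. The 7 carriers and kinases that exchange ATP, phosphate and metabolites had a median of 0.14, with none past 0.25 in either direction. Vdac3, a channel of the outer membrane, was the highest at 128 TPM in the KO-labelled library and 109 TPM in the WT-labelled one, and Slc25a3, the phosphate carrier, the lowest at 382 TPM in the KO-labelled library and 391 TPM in the WT-labelled one.

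The regulators of mitochondrial genes had no higher member by the size of 0.25. Of 14 transcription and replication factors, 13 were measured, with a median of -0.13, 9 below zero and 2 lower by 0.25 or more. Of all genes, 61.5% lay below zero and 23.7% were lower by that size, so these counts are near or under the background. Ppargc1b, a coactivator of mitochondrial biogenesis, had 4.11 TPM in the KO-labelled library and 6.24 TPM in the WT-labelled library, -0.50 on the log2 scale. Polg, the mitochondrial DNA polymerase, had 125 TPM in the KO-labelled library and 154 TPM in the WT-labelled one, -0.30. Tfb1m, which modifies mitochondrial ribosomal RNA, was the highest, at 10.04 TPM in the KO-labelled library and 8.40 TPM in the WT-labelled library. Nrf1, Gabpa and Yy1, whose words were searched above, had 90.01, 62.5 and 163 TPM in the KO-labelled library and 91.5, 63.7 and 186 TPM in the WT-labelled library. Their log2 fold changes were -0.02, -0.03 and -0.19. These regulators have long transcripts, with a median of 3584 bases, in the length range where the median of all genes was -0.18. The 13 subunits encoded by mitochondrial DNA were not analysed here.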

How the data were processed

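Library preparation used Trizol-extracted total RNA and a TruSeq RNA kit, per the labels' protocols. The submitters' processing notes name HISAT2 and mm10 (GRCm38). RefSeq transcripts were quantified with StringTie 1.3.3b with no new assembly, per the file headers. The authors deposited TPM, FPKM and coverage (a depth signal per base) for genes and transcripts, and coverage for exons. Strand use and read filters are not stated in these sources.

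Rows with the same gene ID were summed, and RefSeq (GRCm38.p6) gave a symbol for 24462 of 24532 IDs. Fold changes were log2((TPM + 1) KO / (TPM + 1) WT) over the 12029 genes that reached 1 TPM in either library. TPM keeps no depth, so read pairs were estimated as covered bases divided by 202. Of transcripts with few reads, 34.7% in the KO-labelled library and 34.9% in the WT-labelled library lay within 2 bases of a multiple of 202, against 2.48% by chance. Levels have 95% exact Poisson intervals and ratios exact binomial (Clopper-Pearson) ones. Both cover counting error only, since PCR copies are not separate molecules. For a gene listed at 0 the floor is 3 read pairs.

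The level without the terminal exon is the depth of the other exonic bases divided by the remaining length of the most abundant transcript, for genes with at least 50 such read pairs in both libraries. Shared sequence is the percent of a transcript's 50-base words that other GENCODE M21 genes also hold on either strand, and 18 of the 48 members shared 10% or more. Those with no share given above were Uqcrc2 at 24.8%, Cox7a2l at 19.8%, Atp5j at 16.3%, Cox4i1 at 12.2% and Uqcr11 at 10.9%.

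The sizes of 0.25 and 1 are rules of size, not tests. Members and lists were chosen with earlier results of these data known. The rule for named genes took, per complex, the highest level and the 2 highest and 2 lowest fold changes, with isoform families, changed transcript shares, the gamma gene and the ends of each list. Other members were named after their values were seen. Fold recovery was checked on simulated read pairs. Versions were Python 3.11.15, pandas 2.3.3, numpy 2.4.6, matplotlib 3.10.9 and scipy 1.17.1. Alternatives varied the pseudocount, filter, unit (FPKM), scaling, terminal exons and members with shared sequence.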

Additional observations from a re-analysis of the deposited data

How the results depend on the processing

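No paired analysis was possible because each group had 1 library. The members' median log2 fold change of 0.16 ran from 0.12 to 0.17 under the other pseudocounts and filters, without ribosomal protein genes, without terminal exons and without members of shared sequence. It was 0.23 after rescaling and 0.26 with FPKM, where the median of all genes was 0.03. The gap between members and all genes was 0.23, and was 0.14 with no filter on low values, which brings in genes at 0. The count of members higher by 0.25 or more, 11, became 22 with FPKM and 22 after rescaling, since many members lie just under the size. It was 5 without the members that share 10% or more of their 50-base words, and 24 of those 27 remaining members lay above zero. The 5 were Cox8a, Atp5e, Atp5g3, Cox6a2 and Cox7a1, and the ratio intervals of Cox6a2 and Cox7a1 included 1. For all genes, 15.2% were higher and 11.8% lower by 0.25 with FPKM, and 14.9% and 16.5% after rescaling, against 9.85% and 23.7%. Past a log2 fold change of 1, a pseudocount of 0.1 TPM gave 1 member higher, Cox7a1, and 1 lower, Cox4i2, and rescaling gave 1 higher, Cox7a1. Cyc1 turned to 0.04 after rescaling and 0.07 with FPKM, and Cox6b2 to 0.02 with FPKM. An alternative chosen after seeing the data, without Atp5g1, left the members' median at 0.15 with 10 higher by 0.25, and another, the depth of the additional Atp5pb exon, gave the values of the report. The same 2 genes, Atp5pb and Cox6b2, passed the transcript share rule when shares were taken from covered bases. Depth limits Cox4i2, Cox6a2 and Cox7a1, whose intervals span more than the differences.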
